A study of Homo sapiens with 24 samples.

Results

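The laminin chains are the subunits of the laminins of the basement membrane. The 9 genes LAMA1, LAMA2, LAMA3, LAMA4, LAMA5, LAMB1, LAMB2, LAMB3 and LAMC1, which encode 5 alpha chains, 3 beta chains and 1 gamma chain, were followed here among the 24648 genes tested. They were found as the array probes whose RefSeq transcript belongs to a listed gene, which gave 14 probes. All 14 were kept, all read well above background on each of the 24 arrays, and 0 were saturated. Other laminin chains were not analysed here.

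The study measured mRNA of HepaRG cells, a human hepatocellular carcinoma line with features of liver progenitors, on one-colour Agilent arrays. Mouse recombinant Wnt3a was given at 200 ng/ml, and mouse FZD8_CRD, the soluble domain of a Frizzled receptor that binds Wnt proteins, at 300 ng/ml. All cells were collected at 72 h in William's E medium, the proteins being given without serum and with albumin. The 8 conditions, with 3 arrays each, were untreated cells without transfection, Wnt3a alone, control siRNA, control siRNA with Wnt3a, CTNNB1 siRNA, CTNNB1 siRNA with Wnt3a, FZD8_CRD, and FZD8_CRD with Wnt3a. The siRNAs, at 80 pmol, were brought in by electroporation of suspended cells, while cells with FZD8_CRD were not transfected, so FZD8_CRD was compared with untransfected cells and CTNNB1 siRNA with control siRNA. CTNNB1 encodes beta-catenin, the transcriptional partner of the canonical Wnt pathway.

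A laminin is a trimer of an alpha, a beta and a gamma chain that is assembled in the cell and secreted. Many laminins, though not all, are cross-shaped and polymerise on cell surfaces into the sheet on which a basement membrane is built. The end of the alpha chain binds integrins and dystroglycan, so the choice of alpha chain sets which receptors a laminin engages. In the liver, laminins surround bile ducts and vessels, whereas the sinusoids that face hepatocytes lack a continuous basement membrane, and laminin deposition increases in fibrosis.

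Every value below is the log2 of a probe's processed signal relative to the 75th percentile of its own array, so 0 is a signal equal to that percentile, and the floor was -6.13. Replicates 1, 2 and 3 of every condition lay on slides 1, 2 and 3, and values are given in that order. A change was called at an adjusted p under 0.05 in limma over all genes tested. The p-values rest on the spread between culture experiments of this line, shared over the 8 conditions. Differences between slides stay in that spread unless the replicate is fitted as a block, and 3 arrays a condition limit the precision. The arrays read pooled RNA, so fewer cells of a type and less RNA per cell cannot be told apart.

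Replicate 3 of FZD8_CRD stood apart from its own condition. The root mean square distance over genes was 0.52 to the mean of the other arrays of its own condition, against 0.32 to FZD8_CRD with Wnt3a. No other array lay as far from its own condition. An own-condition mean leaves out the array itself and so rests on fewer arrays than the others, which tends to enlarge that distance. Its COL1A1, a fibrillar collagen, read 1.37, where replicates 1 and 2 read -0.40 and -0.26 and the arrays of FZD8_CRD with Wnt3a read 2.95, 2.99 and 2.71. It stays in its labelled condition below, and many of the changes that use it are given with and without it. Another 5 of the 24 arrays lay nearer to another condition than to their own, namely Wnt3a alone replicates 2 and 3, untreated replicate 3, control siRNA with Wnt3a replicate 1 and CTNNB1 siRNA with Wnt3a replicate 3. For control siRNA with Wnt3a replicate 1 the margin was small (0.367 to control siRNA, against 0.374 to its own condition). Untreated replicate 3 lay nearest to Wnt3a alone (0.34, against 0.44 to its own condition). Wnt3a alone replicate 3 in turn lay nearest to untreated cells (0.38, against 0.47). Leaving out all arrays of replicate 3, FZD8_CRD among them, raised the genes called for Wnt3a without transfection from 1381 to 6344.

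The siRNA and the Wnt3a treatment were checked on CTNNB1 and on AXIN2, a direct target gene of beta-catenin. CTNNB1 read 0.26, 0.35 and 0.52 after CTNNB1 siRNA and 0.33, 0.52 and 0.77 with Wnt3a added, against 3.35, 3.37 and 3.51 after control siRNA. These 6 arrays lay below all other arrays, and CTNNB1 fell by 3.03 (adjusted p = 1.17e-09). AXIN2 read 0.48, 0.46 and 0.22 in untreated cells and 0.87, 0.66 and 0.74 with Wnt3a, and after control siRNA 0.06, 0.15 and -0.04 without and 0.68, 0.76 and 0.51 with Wnt3a. It rose by 0.37 (adjusted p = 0.0453) and by 0.60 (adjusted p = 0.00662), with no overlap of the arrays, though the first of these changes was -0.03 when the arrays were scaled to their spike-in probes. Its difference with Wnt3a was -0.26 after CTNNB1 siRNA (adjusted p = 0.382) and 0.13 with FZD8_CRD (adjusted p = 0.58, and 0.00 without FZD8_CRD replicate 3). The tests of the difference in response gave -0.85 (adjusted p = 0.0519) for CTNNB1 siRNA and -0.24 (adjusted p = 0.572, and -0.36 with adjusted p = 0.101 without FZD8_CRD replicate 3) for FZD8_CRD.

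Promoter sequence was looked up for the chains, and it is shown for 4 of those that changed with FZD8_CRD in the presence of Wnt3a. RefSeq promoters of build GRCh38.p14, taken as the 250 bases before each start, were found for 8 of the 9 genes, LAMA1 having no entry, with 10 entries in all. They were searched on both strands for the AP-1 motif TGAGTCA, which reads TGACTCA on the other strand, and for the TCF/LEF core, which is CTTTG and then 2 further bases, adenine or thymine each. Of 35116 promoters of this length, 4.2% held the AP-1 motif and 12% the TCF/LEF core. Among the laminin genes, 2 held the AP-1 motif and 1 the TCF/LEF core. The sequences below are LAMA2 at chr6:128882888-128883137 on the plus strand, LAMA3 at chr18:23872770-23873019 on the plus strand, LAMA4 at chr6:112254568-112254817 on the minus strand and LAMB3, entry 1 of 3, at chr1:209651375-209651624 on the minus strand. Capitals mark a TCF/LEF match in LAMA2 and AP-1 matches in LAMA3 and LAMB3, and LAMA4 held neither motif in this window.
LAMA2: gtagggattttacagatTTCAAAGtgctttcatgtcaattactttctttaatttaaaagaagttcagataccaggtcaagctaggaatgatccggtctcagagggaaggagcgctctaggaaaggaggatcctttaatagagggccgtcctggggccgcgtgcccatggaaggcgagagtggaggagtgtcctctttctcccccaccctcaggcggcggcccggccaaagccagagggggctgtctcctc
LAMA3: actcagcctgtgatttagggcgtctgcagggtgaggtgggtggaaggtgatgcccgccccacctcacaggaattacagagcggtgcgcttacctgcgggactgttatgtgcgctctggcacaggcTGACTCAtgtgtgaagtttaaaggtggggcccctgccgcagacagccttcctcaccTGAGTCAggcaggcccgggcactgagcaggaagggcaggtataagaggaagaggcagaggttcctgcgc
LAMA4: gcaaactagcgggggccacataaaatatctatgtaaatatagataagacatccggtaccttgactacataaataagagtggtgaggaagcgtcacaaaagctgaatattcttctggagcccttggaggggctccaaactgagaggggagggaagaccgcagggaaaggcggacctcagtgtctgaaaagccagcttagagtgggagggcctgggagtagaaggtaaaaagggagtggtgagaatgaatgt
LAMB3: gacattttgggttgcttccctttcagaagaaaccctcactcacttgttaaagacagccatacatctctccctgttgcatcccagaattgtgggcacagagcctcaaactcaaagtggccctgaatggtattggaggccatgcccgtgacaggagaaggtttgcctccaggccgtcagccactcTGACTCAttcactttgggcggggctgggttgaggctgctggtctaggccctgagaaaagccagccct
LAMA3 held 2 AP-1 matches, LAMB3 held 1 in this entry and 0 in its other entries, and LAMA2 held 1 TCF/LEF match. LAMA5, LAMB1 and LAMB2, also called with FZD8_CRD in the presence of Wnt3a, held 0 matches and are not shown, so the genes shown include every one with a match. Windows were taken by gene, and whether a window belongs to the transcript that a probe reads was not checked. A match describes the letters only, and binding was not measured.

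LAMA1, the alpha chain of embryonic and some epithelial basement membranes, was lower in untransfected cells without FZD8_CRD than in all other conditions. LAMA1 read -0.02, -0.08 and 0.15 in untreated cells and -0.22, 0.21 and 0.18 with Wnt3a. After control siRNA it read 0.45, 0.32 and 0.60 without and 0.40, 0.50 and 0.72 with Wnt3a, and after CTNNB1 siRNA 0.42, 0.41 and 0.50 without and 0.58, 0.56 and 0.87 with Wnt3a. With FZD8_CRD it read 0.44, 0.52 and 0.39, and with Wnt3a added 0.50, 0.44 and 0.35. Each untransfected array without FZD8_CRD lay below each array of the other conditions. The condition means ran from 0.02 ± 0.12 (SD, n = 3) in untreated cells to 0.67 ± 0.17 (SD, n = 3) after CTNNB1 siRNA with Wnt3a, and in that order Wnt3a alone and FZD8_CRD with Wnt3a were the only neighbours without overlap.

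LAMA1 rose by 0.44 (adjusted p = 0.00907) with control siRNA and by 0.49 (adjusted p = 0.0129) in the same comparison with Wnt3a. With FZD8_CRD it rose by 0.43 (adjusted p = 0.00495, and 0.46 with adjusted p = 0.00812 without FZD8_CRD replicate 3) and, in the presence of Wnt3a, by 0.38 (adjusted p = 0.0132). The standard error of each was 0.11. Without control siRNA replicate 3 the first of these was 0.36 (adjusted p = 0.0547). The comparison of control siRNA with Wnt3a did not pass without Wnt3a alone replicate 1 (0.35, adjusted p = 0.111), control siRNA with Wnt3a replicate 2 (0.51, adjusted p = 0.0577) or its replicate 3 (0.40, adjusted p = 0.0728), and that of FZD8_CRD with Wnt3a did not pass without Wnt3a alone replicate 1 (0.24, adjusted p = 0.116) or FZD8_CRD with Wnt3a replicate 1 (0.34, adjusted p = 0.0536). The second LAMA1 probe gave 0.94 and 0.79 for control siRNA and 1.01 and 0.76 for FZD8_CRD, all called. Under spike-in scaling the leading probe gave 0.15 (adjusted p = 0.74) with control siRNA and 0.04 (adjusted p = 0.921) with FZD8_CRD. In the presence of Wnt3a these were 0.76 (adjusted p = 0.171) and 0.29 (adjusted p = 0.568).

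LAMA2, the alpha chain best known from the basement membranes of muscle and peripheral nerve, was lowest with FZD8_CRD and Wnt3a together. LAMA2 read 2.28, 2.44 and 2.35 in untreated cells and 2.25, 2.18 and 2.56 with Wnt3a. After control siRNA the values were 2.14, 2.21 and 2.08 without and 2.18, 2.28 and 2.20 with Wnt3a, and after CTNNB1 siRNA 2.32, 2.35 and 2.42 without and 2.41, 2.62 and 2.59 with Wnt3a. FZD8_CRD alone gave 2.08, 2.09 and 1.499, and FZD8_CRD with Wnt3a gave 1.56, 1.49 and 1.57. Replicate 3 of FZD8_CRD therefore lay among the arrays of FZD8_CRD with Wnt3a, which were below every array without FZD8_CRD. Means ran from 1.54 ± 0.04 (SD, n = 3) with FZD8_CRD and Wnt3a to 2.54 ± 0.12 (SD, n = 3) after CTNNB1 siRNA with Wnt3a, and all neighbours in that order overlapped.

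LAMA2 fell by 0.47 with FZD8_CRD (standard error 0.12, adjusted p = 0.00356), and without FZD8_CRD replicate 3 the change was -0.27 (adjusted p = 0.0214). Where Wnt3a was present, FZD8_CRD lowered it by 0.79, a log2 change of -0.79 (adjusted p = 4.25e-05). Its difference with Wnt3a in cells given FZD8_CRD was -0.35 (adjusted p = 0.0816), and without FZD8_CRD replicate 3 it was -0.54 (adjusted p = 0.000249). The test of whether the response to Wnt3a differed with FZD8_CRD gave -0.32 (adjusted p = 0.453), and -0.52 (adjusted p = 0.0122) without that array. CTNNB1 siRNA with Wnt3a lay 0.32 above control siRNA with Wnt3a (adjusted p = 0.0967), with no overlap of the arrays, and leaving out FZD8_CRD replicate 3, which enters only the spread shared by the fit, gave an adjusted p = 0.0107.

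LAMA3, an alpha chain of epithelial laminins and part of the laminin that anchors hemidesmosomes, covered a narrow range. LAMA3 read 0.83, 1.03 and 0.92 in untreated cells and 1.19, 0.97 and 1.09 with Wnt3a. Control siRNA gave 0.91, 0.86 and 0.94 without and 0.75, 0.60 and 0.71 with Wnt3a, and CTNNB1 siRNA gave 1.05, 1.1 and 1.01 without and 0.75, 0.85 and 0.95 with Wnt3a. With FZD8_CRD the values were 0.79, 0.69 and 0.87, and with Wnt3a added 0.79, 0.64 and 0.72. The arrays of Wnt3a alone lay above those of control siRNA with Wnt3a and of FZD8_CRD with Wnt3a, and after either siRNA the arrays with Wnt3a lay below those without. Means ran from 0.69 ± 0.08 (SD, n = 3) after control siRNA with Wnt3a to 1.08 ± 0.11 (SD, n = 3) with Wnt3a alone, and all neighbours in that order overlapped.

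In the presence of Wnt3a, LAMA3 fell by 0.39 with control siRNA (standard error 0.08, adjusted p = 0.00559, and -0.12 with adjusted p = 0.828 under spike-in scaling) and by 0.36 with FZD8_CRD (adjusted p = 0.000856). Without Wnt3a the same comparisons gave -0.03 (adjusted p = 0.865) and -0.14 (adjusted p = 0.141, and -0.19 with adjusted p = 0.0802 without FZD8_CRD replicate 3). Without Wnt3a alone replicate 1 the change with control siRNA was -0.34 (adjusted p = 0.0538). Comparing cells with and without Wnt3a gave -0.21 after control siRNA (adjusted p = 0.165) and -0.20 after CTNNB1 siRNA (adjusted p = 0.346), neither of which passed.

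LAMA4, the alpha chain of vascular and mesenchymal basement membranes, was low in all arrays with FZD8_CRD and Wnt3a together. On its leading probe, called probe A below, LAMA4 read -0.23, -0.16 and -0.61 in untreated cells and -0.01, -0.67 and -0.30 with Wnt3a. After control siRNA it gave -0.40, -0.37 and -0.43 without and -0.58, -0.61 and -0.58 with Wnt3a, and after CTNNB1 siRNA -0.74, -0.81 and -0.88 without and -1.26, -1.24 and -1.14 with Wnt3a. FZD8_CRD alone read -0.21, -0.25 and -0.70, and FZD8_CRD with Wnt3a read -1.44, -1.33 and -1.31. The arrays of FZD8_CRD with Wnt3a lay below all other arrays, and those of CTNNB1 siRNA with Wnt3a and then of CTNNB1 siRNA alone came next, again without overlap. By its mean control siRNA with Wnt3a followed, below control siRNA without overlap, but single arrays of FZD8_CRD (-0.70) and Wnt3a alone (-0.67) lay below it and an untreated array (-0.61) lay within it. On this probe the means of control siRNA, FZD8_CRD, untreated cells and Wnt3a alone, from -0.40 ± 0.03 to -0.33 ± 0.33 (SD, n = 3), did not differ beyond their spread. Probes B, C and D, given below, were called lower with FZD8_CRD than in untreated cells.

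With Wnt3a in cells given FZD8_CRD, LAMA4 fell by 0.97 (standard error 0.14, adjusted p = 0.000731), and without FZD8_CRD replicate 3 the change was -1.13 (adjusted p = 1.15e-05). It did not pass without all arrays of replicate 1 (-0.84, adjusted p = 0.306) or of replicate 2 (-0.92, adjusted p = 0.152). Against Wnt3a alone, FZD8_CRD with Wnt3a was lower by a log2 change of -1.03 (adjusted p = 1.87e-05). The test of whether the response to Wnt3a differed with FZD8_CRD gave -0.98 (standard error 0.20, adjusted p = 0.0707). That test passed without FZD8_CRD replicate 3 (-1.13, adjusted p = 0.000902), untreated replicate 3 (-0.84, adjusted p = 0.0355), Wnt3a alone replicate 2 (-1.15, adjusted p = 0.0251) or its replicate 3 (-0.96, adjusted p = 0.0484), and with the replicate block (adjusted p = 0.0331). On probe A, FZD8_CRD alone differed from untreated cells by -0.06 (adjusted p = 0.787), and by 0.10 without FZD8_CRD replicate 3.

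CTNNB1 siRNA with Wnt3a read lower on this LAMA4 probe than control siRNA with Wnt3a (log2 change -0.62, adjusted p = 0.00666). Without Wnt3a the difference was -0.41 (adjusted p = 0.0737, 0.0455 with the replicate block and 0.0349 without FZD8_CRD replicate 3). The test of a different response to Wnt3a gave -0.21 (adjusted p = 1). Control siRNA with Wnt3a differed from Wnt3a alone by -0.26 (adjusted p = 0.291), and by -0.44 (adjusted p = 0.0356) without Wnt3a alone replicate 2, and another LAMA4 probe was called in this comparison, as given below.

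LAMA4 has 4 probes on the array, and they did not give the same account of the siRNA. They are annotated to different RefSeq transcripts of the gene. Probe A has a transcript of its own, B and D share another, and C has a different transcript again. Whether the probes differ because of their transcripts was not tested. For CTNNB1 siRNA with Wnt3a, probe A, which stands for the gene, gave -0.62, whereas probes B, C and D gave 0.06, -0.06 and 0.01, none of which passed, and the mean of the probes gave -0.15 (adjusted p = 0.708). The fall with CTNNB1 siRNA was thus measured on 1 of the 4 probes. For FZD8_CRD in the presence of Wnt3a all 4 probes were called lower, at -1.03, -1.95, -1.42 and -1.66. Probe D was the dimmest of them, and with FZD8_CRD it read toward the floor of -6.13. Its values were -3.91, -4.93 and -5.39 with FZD8_CRD alone and -4.71, -5.65 and -4.98 with Wnt3a added. For Wnt3a in cells given FZD8_CRD, probes A, B and C were called at -0.97, -1.03 and -0.86, and probe D gave -0.37 (adjusted p = 0.644), and without FZD8_CRD replicate 3 the values were -1.13, -1.18, -1.08 and -0.69 with the same calls. For FZD8_CRD alone, probe A gave -0.06, while probes B, C and D were called at -0.92 (adjusted p = 6.29e-05), -0.74 (adjusted p = 0.00307) and -1.45 (adjusted p = 0.00138), and the mean of the probes gave -0.79 (adjusted p = 0.000512). Without FZD8_CRD replicate 3 these were 0.10, -0.77, -0.51 and -1.13, again called for B, C and D. In the comparison of control siRNA with Wnt3a against Wnt3a alone, where probe A gave -0.26, probe B was called lower at -0.64 (adjusted p = 0.0127), probe C gave -0.41 (adjusted p = 0.189, and 0.0459 with the replicate block) and probe D -0.44 (adjusted p = 0.48). The test of a different response to Wnt3a with FZD8_CRD gave -1.03 (adjusted p = 0.0742, and 0.0394 with the replicate block), -0.69 (adjusted p = 0.265) and -0.21 (adjusted p = 0.951) on probes B, C and D, and -1.18 (adjusted p = 0.0011), -0.91 (adjusted p = 0.0223) and -0.54 (adjusted p = 0.597) without FZD8_CRD replicate 3.

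**Figure D1:**
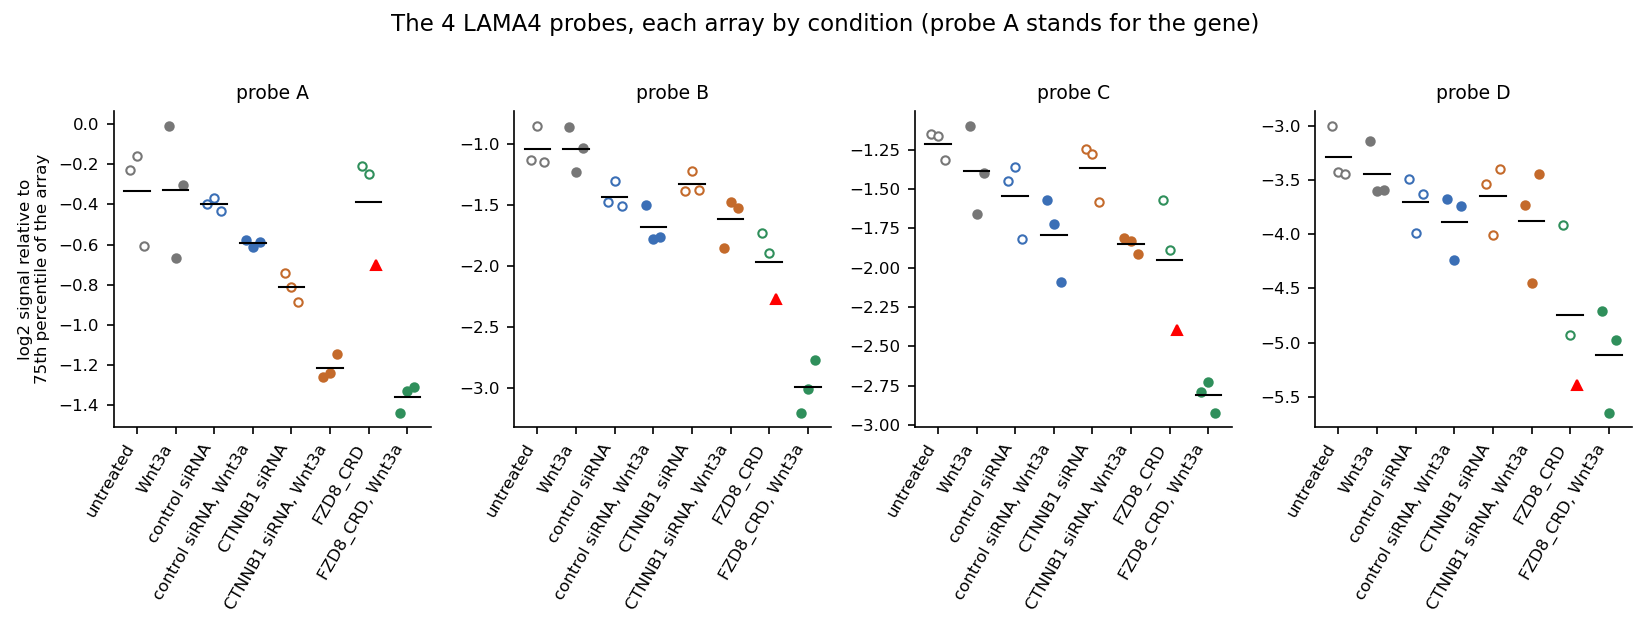
LAMA4 measured by its 4 probes, with the log2 signal over the 75th percentile of its array on the vertical axis and the 8 conditions on the horizontal axis. Points are single arrays (filled with Wnt3a, open without, the red triangle FZD8_CRD replicate 3), and lines are means of 3 arrays. In each panel the arrays with FZD8_CRD and Wnt3a have the lowest mean, and in panel A those with CTNNB1 siRNA are also low.

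LAMA5, the alpha chain of most adult epithelial basement membranes, was higher after either siRNA than in most untransfected arrays. LAMA5 read 2.09, 2.16 and 2.10 in untreated cells and 2.21, 2.50 and 2.09 with Wnt3a. Control siRNA gave 2.65, 2.57 and 2.45 without and 2.64, 2.56 and 2.36 with Wnt3a, and CTNNB1 siRNA gave 2.52, 2.52 and 2.31 without and 2.40, 2.34 and 2.27 with Wnt3a. FZD8_CRD gave 2.08, 2.09 and 1.89 alone and 2.10, 2.02 and 1.92 with Wnt3a. Replicate 2 of Wnt3a alone was the only untransfected array within the range of the transfected ones. Means ran from 2.01 ± 0.09 (SD, n = 3) with FZD8_CRD and Wnt3a to 2.56 ± 0.10 (SD, n = 3) after control siRNA, and all neighbours in that order overlapped.

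LAMA5 rose by 0.44 with control siRNA against untreated cells (standard error 0.10, adjusted p = 0.00279), and by 0.16 (adjusted p = 0.733) under spike-in scaling. With Wnt3a in both groups the difference was 0.25 (adjusted p = 0.119), which passed with the replicate block (adjusted p = 0.0184) and without Wnt3a alone replicate 2 (0.37, adjusted p = 0.00967). In the presence of Wnt3a, LAMA5 fell by 0.25 with FZD8_CRD (adjusted p = 0.0492), though the arrays overlapped and leaving out any of 5 arrays ended the call. Those were Wnt3a alone replicates 1 (-0.28, adjusted p = 0.0661) and 2 (-0.13, adjusted p = 0.281), and FZD8_CRD with Wnt3a replicates 1 (-0.30, adjusted p = 0.0501), 2 (-0.25, adjusted p = 0.0971) and 3 (-0.21, adjusted p = 0.162).

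LAMB1, a beta chain widely used in laminins, was lowest with FZD8_CRD alone. LAMB1 read 5.41, 5.40 and 5.24 in untreated cells and 5.23, 5.32 and 5.28 with Wnt3a. Control siRNA gave 5.25, 5.27 and 5.12 without and 5.23, 5.24 and 5.19 with Wnt3a, and CTNNB1 siRNA gave 5.09, 5.07 and 5.04 without and 5.05, 5.17 and 5.06 with Wnt3a. FZD8_CRD gave 4.83, 4.69 and 4.67 alone and 5.06, 4.93 and 4.89 with Wnt3a. The arrays of FZD8_CRD alone lay below all others, and here replicate 3 lay beside replicate 2. Means ran from 4.73 ± 0.09 (SD, n = 3) with FZD8_CRD to 5.35 ± 0.09 (SD, n = 3) in untreated cells, and FZD8_CRD and FZD8_CRD with Wnt3a were the only neighbours without overlap.

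LAMB1 fell by 0.62 with FZD8_CRD (standard error 0.06, adjusted p = 6.37e-07), and without FZD8_CRD replicate 3 the change was -0.59 (adjusted p = 3.67e-06). In the presence of Wnt3a it fell by 0.31 with FZD8_CRD (adjusted p = 0.000618). With Wnt3a in cells given FZD8_CRD, LAMB1 rose by 0.23 (adjusted p = 0.0297), by 0.23, 0.24 and 0.22 on the slides, and spike-in scaling gave 0.14 (adjusted p = 1). Without FZD8_CRD replicate 3 this was 0.20 (adjusted p = 0.0473), and it did not pass without FZD8_CRD with Wnt3a replicate 1 (0.18, adjusted p = 0.164), FZD8_CRD replicate 2 (0.21, adjusted p = 0.169) or FZD8_CRD with Wnt3a replicate 2 (0.25, adjusted p = 0.0662). The test of a different response to Wnt3a with FZD8_CRD gave 0.30 (adjusted p = 0.155), 0.28 (adjusted p = 0.0792) without FZD8_CRD replicate 3, and 0.36 (adjusted p = 0.0425) without untreated replicate 3. Control siRNA against untreated cells gave -0.14 (adjusted p = 0.131), and -0.19 (adjusted p = 0.0423) without untreated replicate 3.

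LAMB2, the beta chain of synaptic, vascular and kidney basement membranes, had a range of condition means of 1.28 on the probe that stands for it, the widest among such probes, though 3 of the 4 LAMA4 probes ranged more widely. LAMB2 read 6.08, 6.21 and 5.64 in untreated cells and 5.61, 5.51 and 5.63 with Wnt3a. Control siRNA gave 5.69, 5.75 and 5.43 without and 5.47, 5.42 and 5.27 with Wnt3a, and CTNNB1 siRNA gave 5.83, 5.78 and 5.67 without and 5.31, 5.43 and 5.39 with Wnt3a. FZD8_CRD gave 5.63, 5.59 and 4.62 alone and 4.84, 4.76 and 4.50 with Wnt3a. Replicate 3 of FZD8_CRD lay within the arrays of FZD8_CRD with Wnt3a, and these 4 arrays lay below all others. Means ran from 4.70 ± 0.18 (SD, n = 3) with FZD8_CRD and Wnt3a to 5.98 ± 0.29 (SD, n = 3) in untreated cells, and control siRNA with Wnt3a and Wnt3a alone were the only neighbours without overlap.

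LAMB2 fell by 0.70 with FZD8_CRD (standard error 0.19, adjusted p = 0.00543), and without FZD8_CRD replicate 3 the change was -0.36 (adjusted p = 0.0315). With Wnt3a in both groups it fell by 0.89 with FZD8_CRD (adjusted p = 0.000986). The second LAMB2 probe gave -0.71 (adjusted p = 0.00107) in the presence of Wnt3a and -0.27 (adjusted p = 0.159) without it, the latter being 0.01 without FZD8_CRD replicate 3. Wnt3a in cells given FZD8_CRD gave a difference of -0.58 (adjusted p = 0.0635), which passed with the replicate block (adjusted p = 0.0154) and without FZD8_CRD replicate 3 (-0.91, adjusted p = 5.01e-05). On the second probe that difference was called at -0.53 (adjusted p = 0.0376), and at -0.81 (adjusted p = 2.8e-06) without FZD8_CRD replicate 3. The test of a different response to Wnt3a with FZD8_CRD gave -0.19 (adjusted p = 0.895), and -0.52 (adjusted p = 0.0788) without that array, while the second probe gave -0.43 (adjusted p = 0.421), and -0.72 (adjusted p = 0.000989) without it.

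In cells without FZD8_CRD, the LAMB2 difference with Wnt3a was -0.39 (adjusted p = 0.238) without transfection, -0.24 (adjusted p = 0.714) after control siRNA and -0.38 (adjusted p = 0.496) after CTNNB1 siRNA. On this probe it was below 0 on each slide in all 3 settings. The second probe gave -0.09, -0.26 and -0.30, none of them called, and without transfection its replicate 3 read 4.13 untreated and 4.26 with Wnt3a. FZD8_CRD replicate 3 also widened the spread that the fit shares among conditions. Left out, it gave an adjusted p of 0.0413 for LAMB2 with Wnt3a without transfection, and of 0.032 for control siRNA against untreated cells (log2 change -0.35, adjusted p = 0.205 with all arrays). The second probe did not pass in either comparison without that array, at -0.09 (adjusted p = 0.563) and -0.06 (adjusted p = 0.668).

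LAMB3, the beta chain that pairs with the LAMA3 product in the laminin of hemidesmosomes, was highest with FZD8_CRD and Wnt3a together. LAMB3 read 1.92, 2.04 and 1.89 in untreated cells and 1.98, 2.04 and 2.20 with Wnt3a. Control siRNA gave 2.29, 2.28 and 2.32 without and 2.19, 2.48 and 2.47 with Wnt3a, and CTNNB1 siRNA gave 2.47, 2.48 and 2.44 without and 2.50, 2.59 and 2.72 with Wnt3a. FZD8_CRD gave 1.88, 1.82 and 2.72 alone and 3.1, 3.01 and 2.94 with Wnt3a. The arrays of FZD8_CRD with Wnt3a lay above all others, and replicate 3 of FZD8_CRD stood between these and its own replicates, which were the lowest of all. Means ran from 1.95 ± 0.08 (SD, n = 3) in untreated cells to 3.02 ± 0.08 (SD, n = 3) with FZD8_CRD and Wnt3a. In that order CTNNB1 siRNA with Wnt3a, the second highest, overlapped neither of its neighbours, and all other neighbours overlapped.

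LAMB3 rose by 0.88 with Wnt3a in cells given FZD8_CRD (standard error 0.15, adjusted p = 0.00209), by 1.22, 1.18 and 0.22 on the slides. Without FZD8_CRD replicate 3 the change was 1.17 (adjusted p = 3.11e-08), and it did not pass without all arrays of replicate 1 (0.70, adjusted p = 0.426) or of replicate 2 (0.72, adjusted p = 0.346). Against Wnt3a alone, it rose by 0.94 with FZD8_CRD (adjusted p = 8.46e-05). The test of a different response to Wnt3a with FZD8_CRD gave 0.75 (standard error 0.22, adjusted p = 0.145), and 1.04 (adjusted p = 1.81e-05) without FZD8_CRD replicate 3. FZD8_CRD alone against untreated cells gave 0.19 (adjusted p = 0.345), and -0.10 without that array. Control siRNA gave 0.34 (adjusted p = 0.119) without and 0.30 (adjusted p = 0.246) with Wnt3a, and these had adjusted p = 0.00325 and adjusted p = 0.0172 when FZD8_CRD replicate 3 was left out of the shared spread.

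LAMC1, the gamma chain shared by most laminins, was lowest in untreated cells. LAMC1 read 2.24, 2.25 and 2.34 in untreated cells and 2.49, 2.80 and 2.35 with Wnt3a. Control siRNA gave 2.81, 2.73 and 2.74 without and 2.84, 2.81 and 2.67 with Wnt3a, and CTNNB1 siRNA gave 2.85, 2.86 and 2.81 without and 3.25, 3.102 and 2.90 with Wnt3a. FZD8_CRD gave 2.64, 2.71 and 2.60 alone and 2.92, 2.58 and 2.64 with Wnt3a. The arrays of untreated cells lay below all others, and those of CTNNB1 siRNA with Wnt3a lay above those of CTNNB1 siRNA alone. Means ran from 2.28 ± 0.06 (SD, n = 3) in untreated cells to 3.08 ± 0.17 (SD, n = 3) after CTNNB1 siRNA with Wnt3a, and the neighbours at either end of that order did not overlap.

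LAMC1 rose by 0.48 with control siRNA against untreated cells (standard error 0.10, adjusted p = 0.0022), and by 0.20 (adjusted p = 0.664) under spike-in scaling. With FZD8_CRD it rose by 0.37 (adjusted p = 0.00651, and 0.40 with adjusted p = 0.0102 without FZD8_CRD replicate 3), a direction that turned to -0.02 when the arrays were scaled to their spike-in probes. In the presence of Wnt3a, control siRNA gave 0.22 (adjusted p = 0.202) and FZD8_CRD gave 0.17 (adjusted p = 0.227), and without Wnt3a alone replicate 2 these were 0.35 (adjusted p = 0.0175) and 0.29 (adjusted p = 0.023). CTNNB1 siRNA with Wnt3a lay 0.31 above control siRNA with Wnt3a (adjusted p = 0.0588). That difference passed with the replicate block (adjusted p = 0.0282) and without CTNNB1 siRNA with Wnt3a replicate 3 (0.41, adjusted p = 0.0259). Wnt3a alone gave 0.27 (adjusted p = 0.127), and 0.37 (adjusted p = 0.0288) without its replicate 3.

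**Figure D2:**
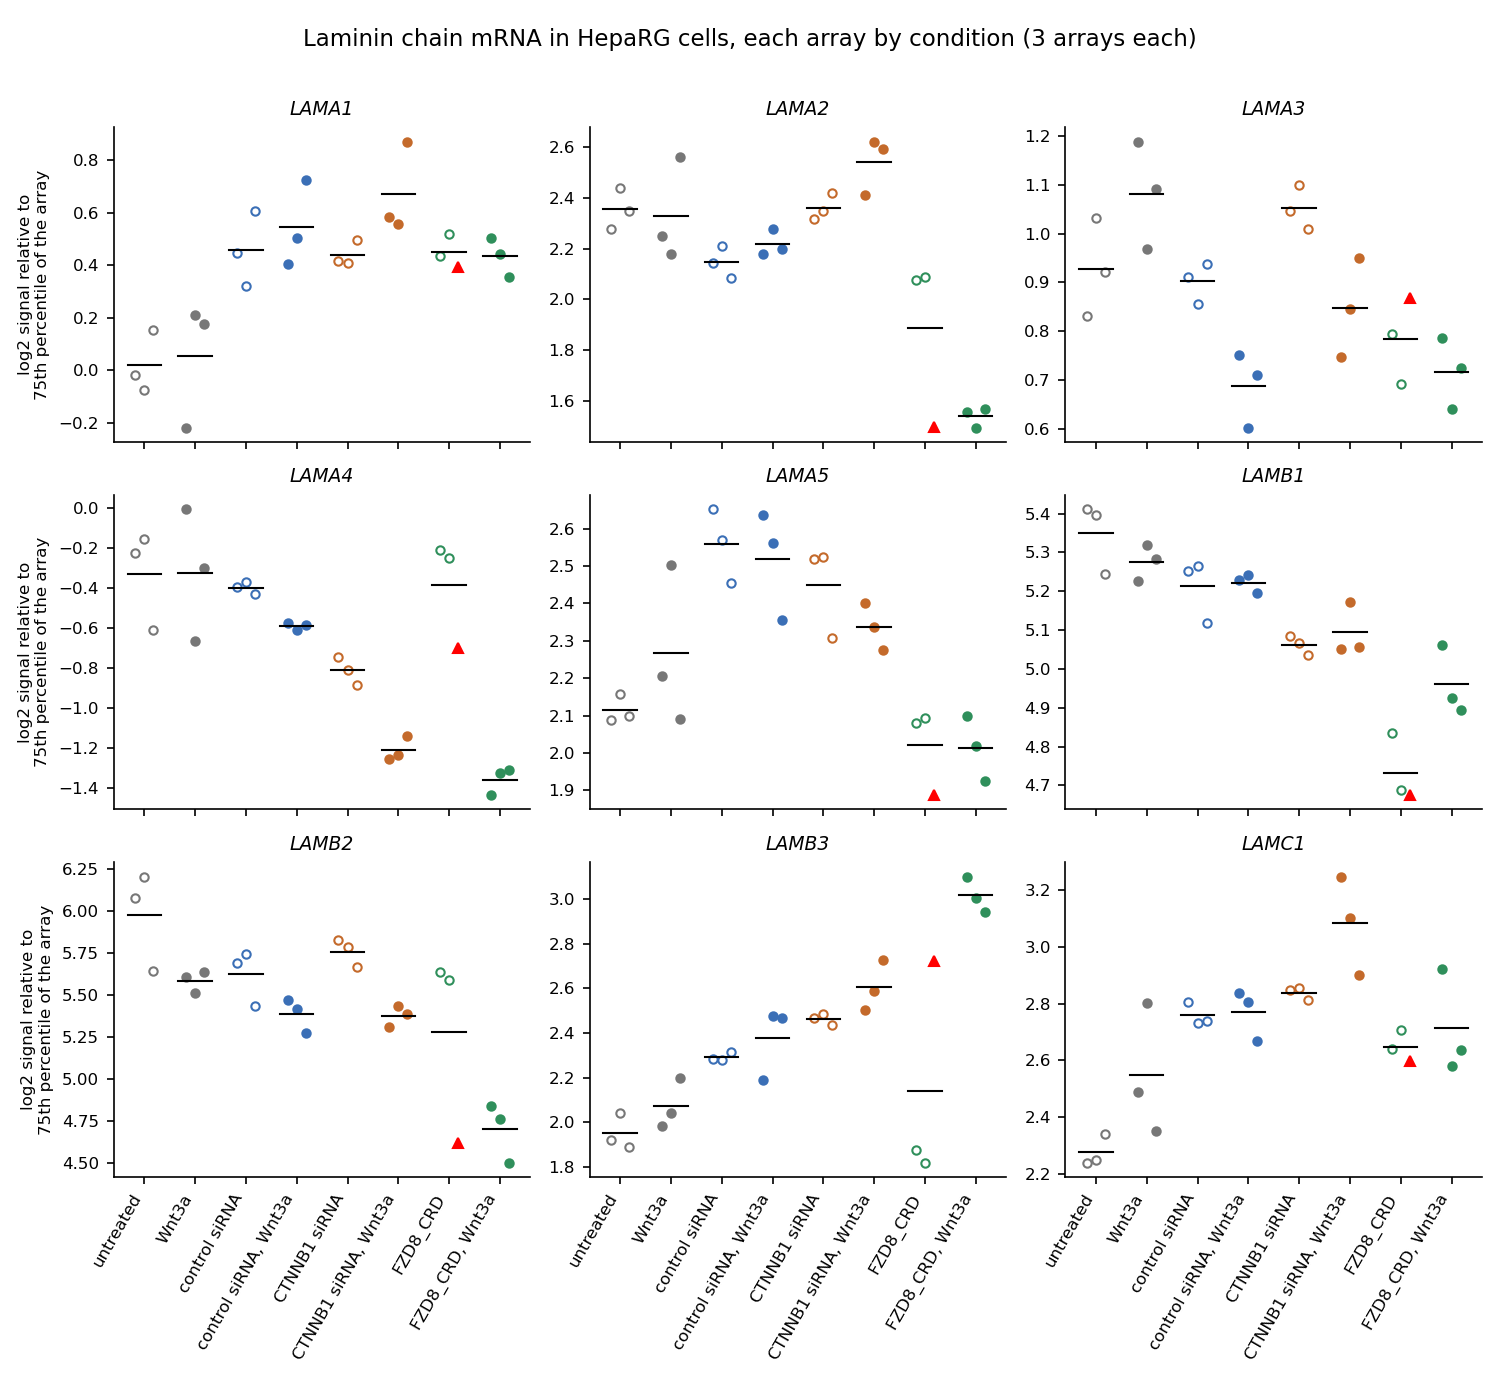
Each laminin chain on every array, with the log2 signal over the 75th percentile of its array on the vertical axis and the 8 conditions on the horizontal axis. Points are arrays (filled with Wnt3a, open without), lines are means of 3 arrays, and the red triangle is FZD8_CRD replicate 3, which for LAMA2, LAMB2 and LAMB3 lies nearer to FZD8_CRD with Wnt3a than its own replicates do.

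With all arrays, Wnt3a called no laminin chain in cells without FZD8_CRD. Without transfection 0 of the 9 chains passed in limma, and 1 had an unadjusted p under 0.05 (21.2% of all genes did), beside 5.6% of all genes called (2.99% higher and 2.61% lower). After control siRNA 0 of 9 passed, and 1 had an unadjusted p under 0.05 (14.0% of all genes did), beside 2.11% of all genes called (1.09% higher and 1.02% lower). After CTNNB1 siRNA 0 of 9 passed, and 3 had an unadjusted p under 0.05 (10.4% of all genes did), beside 0.0406% of all genes called (0.0365% higher and 0.00406% lower). The median log2 change of the chains was 0.04, 0.01 and 0.03 in these settings, beside 0.01, 0.02 and 0.03 over all genes. Without all arrays of replicate 3, LAMB2 was called at -0.58 (adjusted p = 0.000381) and LAMC1 at 0.40 (adjusted p = 0.0216) without transfection. In that fit 6344 genes were called for this comparison, against 1381 with all arrays. After CTNNB1 siRNA, LAMB2 was then called at -0.43 (adjusted p = 0.0204).

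With FZD8_CRD present, Wnt3a called 3 of the 9 chains, LAMB1 and LAMB3 higher and LAMA4 lower, beside 8.29% of all genes (4.36% higher and 3.94% lower). LAMA2 and LAMB2 were also called lower without FZD8_CRD replicate 3, which made 5 of 9, beside 19.9% of all genes (8.69% higher and 11.3% lower). The median of the chains was -0.02, beside 0.02 over all genes. The difference in response between cells with and without FZD8_CRD called 0 of 9 chains, with 3 at an unadjusted p under 0.05 (12.7% of all genes were), beside 0.073% of all genes called. Without FZD8_CRD replicate 3 it called 3 of 9, LAMB3 higher and LAMA2 and LAMA4 lower, beside 7.75% of all genes (3.24% higher and 4.52% lower). The difference in response between CTNNB1 siRNA and control siRNA called 0 of 9 chains, and 0 had an unadjusted p under 0.05 (3.33% of all genes did), beside 0.0162% of all genes called.

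**Figure D3:**
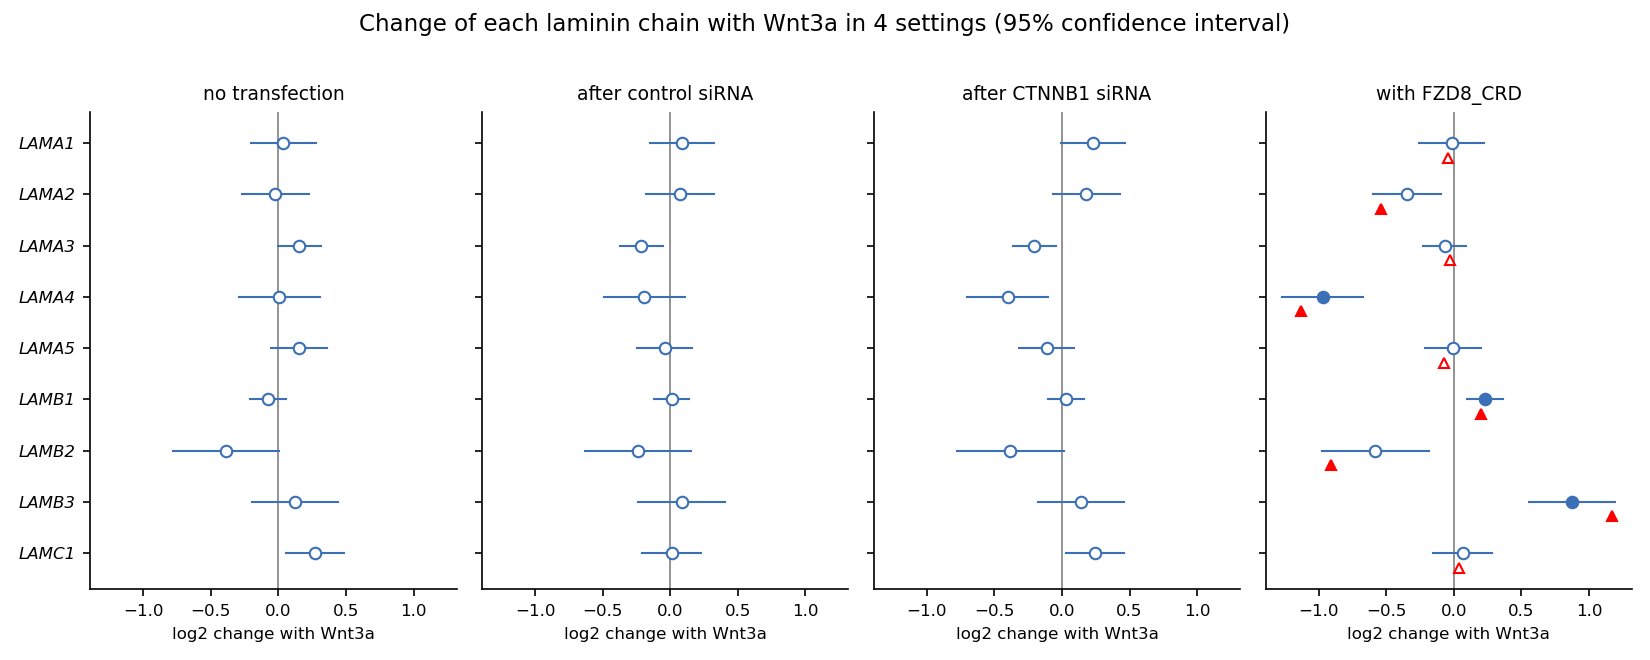
Log2 change of each chain with Wnt3a (horizontal axis) in 4 settings, as points with 95% confidence intervals from the fit over 24 arrays. Filled points passed the test, and red triangles give the change without FZD8_CRD replicate 3, filled where it passed. No point is filled in the panels without FZD8_CRD, though some intervals there exclude 0, and with FZD8_CRD LAMA4 lies at -0.97 and LAMB3 at 0.88.

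Transfection with control siRNA called 3 of the 9 chains, LAMA1, LAMA5 and LAMC1, all higher, beside 22.3% of all genes (12.3% higher and 10.1% lower). With Wnt3a in both groups it called LAMA1 higher and LAMA3 lower, 2 of 9, beside 9.04% of all genes (5.44% higher and 3.59% lower). The chain medians were -0.03 and -0.05, beside -0.03 and -0.02 over all genes.

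CTNNB1 siRNA against control siRNA called 0 of the 9 chains, with 2 at an unadjusted p under 0.05 (22.7% of all genes were), beside 10.6% of all genes called (4.4% higher and 6.16% lower). With Wnt3a in both groups it called 1 of 9, LAMA4 lower on its leading probe, beside 10.6% of all genes (4.08% higher and 6.5% lower). The chain medians were 0.08 and 0.13, beside -0.03 and -0.01 over all genes.

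FZD8_CRD against untreated cells called 5 of the 9 chains, LAMA1 and LAMC1 higher and LAMA2, LAMB1 and LAMB2 lower, beside 41.9% of all genes (19.7% higher and 22.2% lower), with LAMC1 at -0.02 under spike-in scaling. Without FZD8_CRD replicate 3 these same 5 chains were called, beside 40.6% of all genes (20.2% higher and 20.4% lower). These counts read each chain on its leading probe. LAMA4 is not among the 5, though its probes B, C and D and the mean of its probes (-0.79, adjusted p = 0.000512) were called lower. The second LAMB2 probe was not called, at -0.27 (adjusted p = 0.159), and at 0.01 without FZD8_CRD replicate 3. In the presence of Wnt3a, FZD8_CRD called 8 of 9, LAMA1 and LAMB3 higher and LAMA2, LAMA3, LAMA4, LAMA5, LAMB1 and LAMB2 lower, beside 37.2% of all genes (18.2% higher and 18.9% lower). The chain medians were -0.09 and -0.31, beside -0.09 and -0.08 over all genes. The comparisons with control siRNA and with FZD8_CRD share the untreated arrays, or those of Wnt3a alone, so their values are set side by side and not counted against each other.

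**Figure D4:**
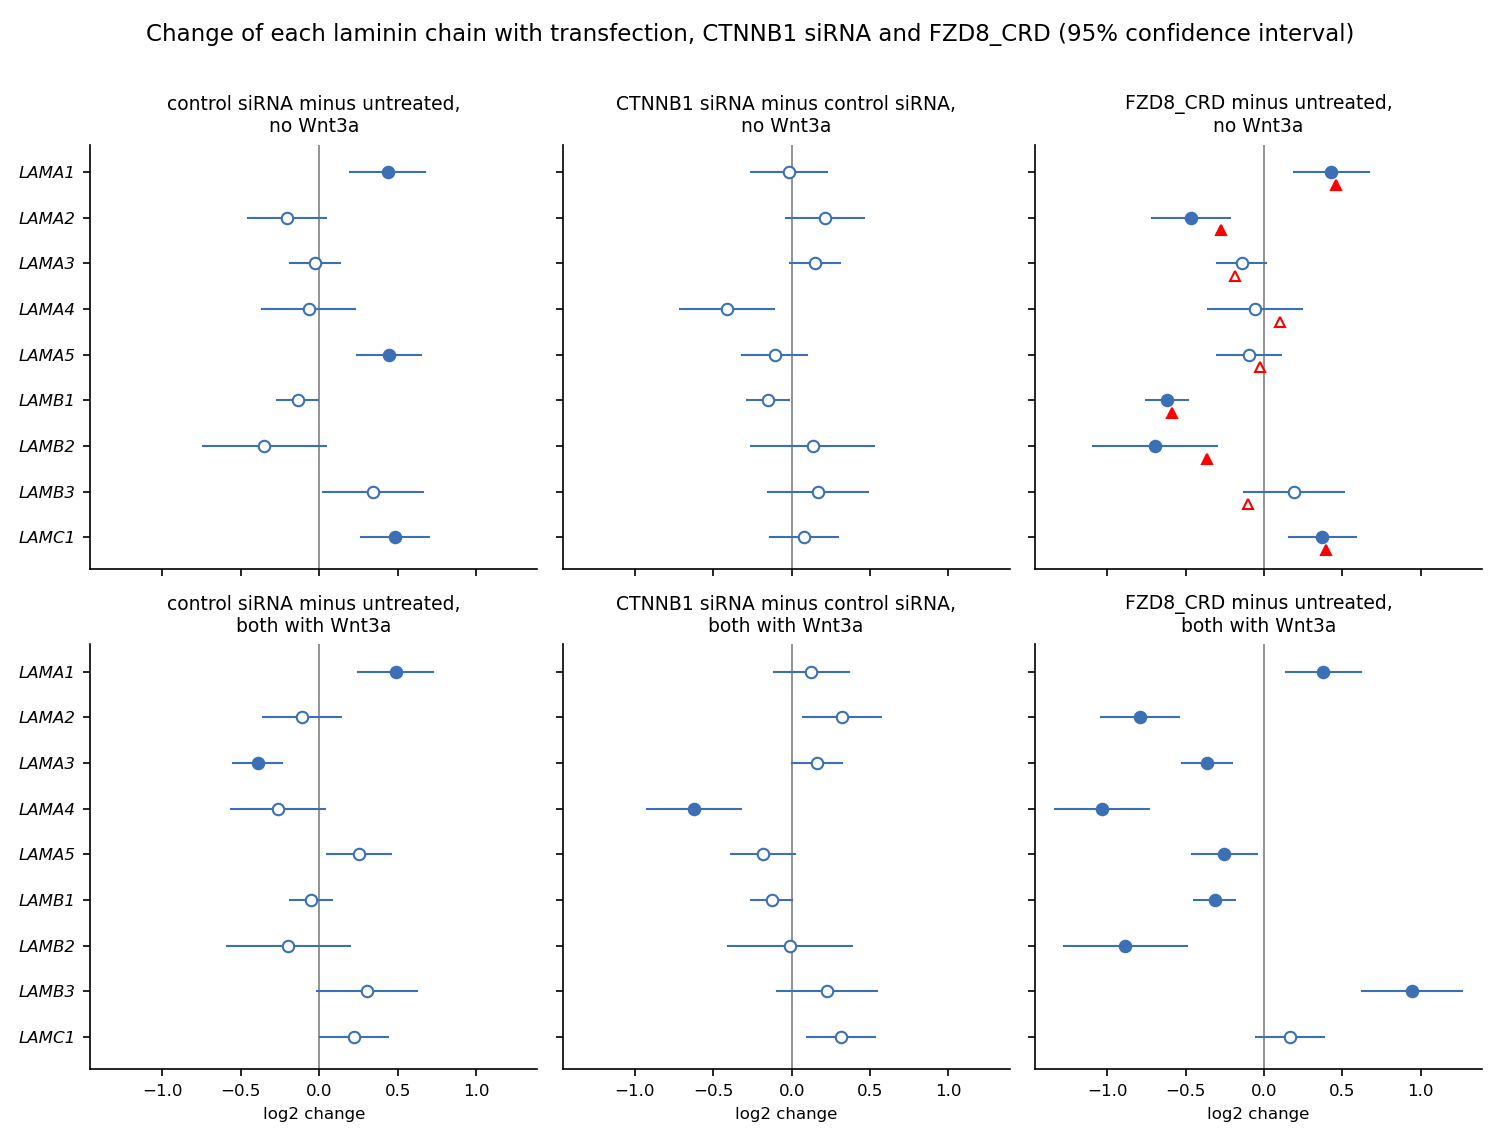
Log2 change of each chain (horizontal axis) with control siRNA, CTNNB1 siRNA and FZD8_CRD, without Wnt3a in the upper row and with Wnt3a in both groups in the lower row, as points with 95% confidence intervals. Filled points passed the test, and red triangles leave out FZD8_CRD replicate 3. FZD8_CRD with Wnt3a has the most filled points, from -1.03 for LAMA4 to 0.94 for LAMB3, and LAMC1 with FZD8_CRD alone (0.37) turns to -0.02 under spike-in scaling.

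Across the 12 comparisons, 22 of 108 chain values were called, beside 12.3% of the values of all genes. The scaling of the arrays mattered for them. Scaling each array to its 7 spike-in probes shifted the median log2 change of all genes by -0.39 for Wnt3a without transfection, 0.16 after control siRNA and -0.13 after CTNNB1 siRNA. It shifted that median by -0.28 and 0.27 for control siRNA without and with Wnt3a, by -0.20 for CTNNB1 siRNA with Wnt3a and by -0.38 for FZD8_CRD. Of the 22 calls, 5 remained under this scaling, which called 4.4% of all values, namely LAMA2, LAMB1 and LAMB2 with FZD8_CRD and LAMA4 and LAMB3 with FZD8_CRD in the presence of Wnt3a. Of the 17 calls that ended, 8 had a larger change under this scaling and 9 a smaller. In the presence of Wnt3a, LAMA2 with FZD8_CRD was at -0.88 (adjusted p = 0.0523) and LAMB2 at -0.97 (adjusted p = 0.061), while LAMA4 with Wnt3a in cells given FZD8_CRD was at -1.06 (adjusted p = 0.0695). LAMA4 with CTNNB1 siRNA and Wnt3a was at -0.82 (adjusted p = 0.158), and LAMA1 with control siRNA and Wnt3a at 0.76 (adjusted p = 0.171). LAMA1 with FZD8_CRD alone was at 0.04 (adjusted p = 0.921), LAMB1 with Wnt3a in cells given FZD8_CRD at 0.14 (adjusted p = 1) and LAMA3 with control siRNA and Wnt3a at -0.12 (adjusted p = 0.828), and with control siRNA alone LAMA1, LAMA5 and LAMC1 were at 0.15, 0.16 and 0.20. All 22 kept their call under quantile normalization.

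The chains followed a few patterns over the 24 arrays, which share 8 conditions and 3 slides. Of 36 pairs of chains, 21 had a Pearson r above 0 and 15 below. LAMA2 and LAMB2 moved together (r = 0.76 over 24 arrays), as did LAMA1 and LAMC1 (r = 0.70) and LAMA4 and LAMB2 (r = 0.66). LAMA4 and LAMB3 moved oppositely (r = -0.85, and -0.94 over the 8 condition means), as did LAMB2 and LAMB3 (r = -0.75). These are descriptions, with no test.

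By the same measure over 24 arrays, the genes whose pattern was most like each chain were RCCD1 (0.900), NEK3 (0.895) and MEPCE (0.890) for LAMA1, and APCDD1 (0.940), TSC22D3 (0.937) and KDR (0.932) for LAMA2. They were ANKRD29 (0.790), PPP1R13L (0.780) and DOCK8 (0.773) for LAMA3, CLEC3B (0.924), DKK1 (0.916) and SUSD2 (0.911) for LAMA4, and ZNF335 (0.913), NUMA1 (0.893) and VPS11 (0.890) for LAMA5. Those values are lowest for LAMA3, whose range was the narrowest. Among the other chains they were SGK1 (0.942), CLEC18B (0.936) and LRRC56 (0.924) for LAMB1, CTIF (0.975), COX5B (0.974) and MCRIP2 (0.964) for LAMB2, INSC (0.917), GOLM1 (0.910) and ADGRG1 (0.904) for LAMB3, and FOSL1 (0.953), FAM234B (0.920) and MTMR2 (0.909) for LAMC1. Over the 8 condition means the leading gene of each chain had an r from 0.817 for ANKRD29 with LAMA3 to 0.984 for CTIF with LAMB2.

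Other parts of the basement membrane were counted in the same comparisons. Of 16 listed partners of laminins, 15 were tested, COL15A1 not being kept. With Wnt3a 4 rose and 0 fell without transfection (beside 5.6% of all genes called), 1 rose and 0 fell after control siRNA (2.11%), 0 moved after CTNNB1 siRNA (0.0406%), and 5 rose and 2 fell with FZD8_CRD (8.29%, and 7 and 2 beside 19.9% without FZD8_CRD replicate 3). With that array left out, 6 rose and 1 fell without transfection (9.26%). After control siRNA 1 rose and 2 fell (5.11%), and after CTNNB1 siRNA 1 rose and 1 fell (0.58%). With the replicate block 7 rose without transfection and 1 after CTNNB1 siRNA, beside 11.5% and 0.17% of all genes. Under spike-in scaling 0 rose in any of these settings, and 1 fell with FZD8_CRD, beside 1.22%, 0.235%, 0% and 0.998% of all genes. SPARC, a collagen-binding matrix protein, rose with Wnt3a by 0.85 without transfection, 0.70 after control siRNA and 0.77 with FZD8_CRD (0.88 without FZD8_CRD replicate 3), and gave 0.44 (adjusted p = 0.182) after CTNNB1 siRNA. CTNNB1 siRNA lowered SPARC by a log2 change of -0.70, and of -0.97 with Wnt3a. The peroxidasin gene PXDN, whose product crosslinks collagen IV, rose with Wnt3a by 1.16 without transfection and by 0.78 with FZD8_CRD (0.94 without FZD8_CRD replicate 3).

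Against untreated cells, control siRNA raised 4 partners and lowered 4 (beside 22.3% of all genes called), and with Wnt3a in both groups 0 and 2 (9.04%). CTNNB1 siRNA against control siRNA raised 0 and lowered 1, and with Wnt3a 1 and 1 (10.6% in either). FZD8_CRD raised 5 and lowered 2 (41.9%, and 4 and 2 beside 40.6% without FZD8_CRD replicate 3), and with Wnt3a raised 4 and lowered 6 (37.2%). With the replicate block control siRNA raised 5 (beside 32.1% of all genes), CTNNB1 siRNA with Wnt3a lowered 2 (15.6%) and FZD8_CRD with Wnt3a raised 5 (48.5%). Under spike-in scaling control siRNA raised 0 and lowered 2 (6.63%), FZD8_CRD raised 1 and lowered 2 (30%), and with Wnt3a 3 and 4 (9.4%). That scaling called 0 partners for control siRNA with Wnt3a (0.901%) and for CTNNB1 siRNA (0.763%), and 1 lower with Wnt3a (2.61%). With FZD8_CRD, without and with Wnt3a, PXDN rose by 1.69 and 1.32 and NTN4, a netrin that binds the laminin network, by 1.09 and 0.74, and COL18A1, a basement membrane collagen, fell by 0.84 and 0.71. Of the 6 collagen IV chains, 2 were called higher and 0 lower with FZD8_CRD, and with Wnt3a 1 higher and 3 lower, COL4A5 falling there by 1.08. The nidogen NID2, which links laminin to collagen IV, rose with FZD8_CRD by 0.69 (0.43 without FZD8_CRD replicate 3) and by 1.09 with Wnt3a. The medians of the partners with FZD8_CRD were -0.07 and -0.14, beside -0.09 and -0.08 over all genes. The difference tests called 0 of 15 for either treatment, and 5 of 15 (2 higher and 3 lower) for FZD8_CRD without its replicate 3, beside 7.75% of all genes.

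All 12 listed laminin receptors were tested. With Wnt3a 2 rose and 1 fell without transfection (2 fell with the replicate block, beside 11.5% of all genes), 1 rose and 0 fell after control siRNA, 0 moved after CTNNB1 siRNA, and 3 rose and 1 fell with FZD8_CRD, beside 5.6%, 2.11%, 0.0406% and 8.29% of all genes called. Spike-in scaling called 0 receptors in each of these settings. ITGB4, the integrin beta chain of hemidesmosomes, rose by 1.23, 1.13 and 0.97 (1.05 without FZD8_CRD replicate 3) in the settings other than CTNNB1 siRNA, where it gave 0.30 (adjusted p = 0.702), and the difference in response between the siRNAs was -0.83 (adjusted p = 1). CTNNB1 siRNA lowered ITGB4 by log2 changes of -1.36 and, with Wnt3a, -2.19. Its partner ITGA6, the alpha chain of that receptor, fell by 0.67 with Wnt3a alone and rose with FZD8_CRD by 0.49, and by 1.104 in the presence of Wnt3a.

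Control siRNA raised 2 receptors and lowered 1 (beside 22.3% of all genes called), and with Wnt3a 1 and 1 (9.04%), while CTNNB1 siRNA raised 1 and lowered 2, and with Wnt3a 3 and 2 (10.6% in either). Under quantile normalization CTNNB1 siRNA with Wnt3a raised 1 and lowered 2 (10.5%). FZD8_CRD raised 4 and lowered 3 (41.9%, and 3 and 3 beside 40.6% without FZD8_CRD replicate 3), and in the presence of Wnt3a 6 and 3 (37.2%). With the replicate block the counts were 2 and 2 for control siRNA, 2 and 1 with Wnt3a, 2 and 4 for CTNNB1 siRNA, 6 and 4 for FZD8_CRD and 7 and 3 with Wnt3a, beside 32.1%, 15.2%, 16.6%, 53.3% and 48.5% of all genes. Under spike-in scaling they were 0 and 1 for control siRNA (6.63%), 0 and 0 with Wnt3a (0.901%), 0 and 1 for CTNNB1 siRNA without and with Wnt3a (0.763% and 2.61%), 0 and 4 for FZD8_CRD (30%) and 1 and 1 with Wnt3a (9.4%). The genes called for FZD8_CRD under that scaling were mostly lower, 6829 against 555 higher. The syndecan SDC4 fell with FZD8_CRD by 0.70 (0.53 without replicate 3, a log2 change of -0.53) and by 0.97 with Wnt3a, and ITGA3, an integrin alpha chain that binds several laminins, rose by 0.69 and 0.42. Receptor medians with FZD8_CRD were 0.28 and 0.36, beside -0.09 and -0.08 over all genes, and the difference tests called 0 of 12. The hemidesmosome list of 6 genes shares ITGA6, ITGB4 and CD151 with the receptors. It had 1 rise and 1 fall with Wnt3a without transfection, 1 rise after control siRNA, 0 calls after CTNNB1 siRNA and 1 rise in cells given FZD8_CRD, beside the shares of all genes given above. The last of these was 2 rises without FZD8_CRD replicate 3 (19.9% of all genes) and 2 under quantile normalization (8.0%). Control siRNA gave 1 rise and 1 fall (22.3% of all genes called), and 1 rise with Wnt3a (9.04%). CTNNB1 siRNA gave 1 fall, and 1 rise and 1 fall with Wnt3a (10.6% in either). With FZD8_CRD against untreated cells it had 1 rise and 1 fall (41.9% of all genes called), and 2 rises and 1 fall with Wnt3a (37.2%). With the replicate block there were 2 rises for Wnt3a without transfection, for control siRNA against untreated cells and for FZD8_CRD against untreated cells, and 1 rise for CTNNB1 siRNA, beside 11.5%, 32.1%, 53.3% and 16.6% of all genes. Under spike-in scaling the calls were 1 fall for CTNNB1 siRNA without and with Wnt3a (0.763% and 2.61%), 1 fall for FZD8_CRD (30%) and 1 rise for FZD8_CRD with Wnt3a (9.4%). COL17A1, the transmembrane collagen of hemidesmosomes, fell by 0.67 with control siRNA and by 0.58 with FZD8_CRD, though neither passed under quantile normalization, at -0.54 (adjusted p = 0.133) and -0.31 (adjusted p = 0.346).

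The cells were checked against markers of the line and of other cell types. All 6 hepatocyte markers read well above background on all arrays, ALB (albumin) having the brightest probe. Their summed level, on the same log2 scale, was 10.50, 10.07 and 9.56 in untreated cells and 9.80, 8.60 and 9.80 with Wnt3a. It was 8.64, 8.51 and 8.57 after control siRNA, 8.04, 7.56 and 8.0 after control siRNA with Wnt3a, 9.26, 8.86 and 9.19 after CTNNB1 siRNA and 8.13, 8.58 and 8.92 after CTNNB1 siRNA with Wnt3a. With FZD8_CRD it was 8.48, 7.90 and 8.51, and 8.62, 8.59 and 8.57 with Wnt3a. Untreated cells and Wnt3a alone thus had the highest sums, apart from replicate 2 of Wnt3a alone. All 6 markers fell with control siRNA (beside 22.3% of all genes called) and all 6 with FZD8_CRD (41.9%), also under spike-in scaling, and 3 fell in each of these comparisons with Wnt3a (9.04% and 37.2%), while 2 rose with Wnt3a in cells given FZD8_CRD (8.29%, and 3 beside 19.9% without FZD8_CRD replicate 3). In cells without FZD8_CRD, Wnt3a called 0 of the 6 markers (beside 5.6%, 2.11% and 0.0406% of all genes). By sign all 6 were lower without transfection (median -0.90), 5 lower and 1 higher after control siRNA (-0.32), and 6 lower after CTNNB1 siRNA (-0.51). CTNNB1 siRNA against control siRNA called 0, with all 6 higher by sign (median 0.72), and with Wnt3a 1 higher (median 0.58), beside 10.6% of all genes in either. ALB fell by 1.65 with control siRNA and by 1.81 with FZD8_CRD, the comparisons in which LAMA1 and LAMC1 rose, and the part of this shift in the laminin values was not tested.

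Of the 5 mesenchymal markers, all well above background with CDH2 the brightest probe, 3 rose with Wnt3a without transfection (ACTA2 among them, at 0.31, and -0.08 under spike-in scaling), 2 after control siRNA, 0 after CTNNB1 siRNA and 4 with FZD8_CRD, and 0 fell, beside 5.6%, 2.11%, 0.0406% and 8.29% of all genes called. Under spike-in scaling 1, 2, 0 and 1 rose, beside 1.22%, 0.235%, 0% and 0.998% of all genes. CTNNB1 siRNA with Wnt3a, in which probe A of LAMA4 fell, raised 1 and lowered 3 (beside 10.6% of all genes called, with a median of -0.84 beside -0.01 over all genes). FZD8_CRD raised 2 and lowered 1 (41.9%), and with Wnt3a, where most chains were called, it raised 3 and lowered 1 (37.2%, with a median of 0.32 beside -0.08). Under spike-in scaling CTNNB1 siRNA with Wnt3a raised 0 and lowered 3 (2.61%), and FZD8_CRD raised 1 and lowered 1 without and with Wnt3a (30% and 9.4%), ACTA2 turning from 0.30 to -0.09 with FZD8_CRD alone, and the part of these shifts in the chains was not tested. Their summed level was 4.87, 4.77 and 4.66 in untreated cells, 5.13, 5.35 and 4.98 with Wnt3a, 4.68, 4.71 and 4.56 after control siRNA and 5.03, 5.01 and 4.96 after control siRNA with Wnt3a. After CTNNB1 siRNA it was 4.72, 4.76 and 4.67, and 4.92, 4.86 and 4.81 with Wnt3a. With FZD8_CRD it was 4.72, 4.76 and 5.05, and 5.38, 5.42 and 5.22 with Wnt3a, so that replicate 3 of FZD8_CRD again lay between the conditions. COL1A1 rose by 2.65 with Wnt3a in cells given FZD8_CRD (3.22 without replicate 3), beside the fall of LAMA4 and the rise of LAMB3, and its part in them was not tested.

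Of the biliary or progenitor markers 3 of 4 were tested, EPCAM not being kept, and KRT19, whose probe was the brightest, read 7.72 or above on every array. It rose with FZD8_CRD by 0.36, a direction that turned to -0.03 under spike-in scaling, and by 0.59 in the presence of Wnt3a, while SOX9 fell by 0.53 and 0.75. Without FZD8_CRD replicate 3 the changes with FZD8_CRD alone were 0.23 for KRT19 (adjusted p = 0.0676) and -0.32 for SOX9 (adjusted p = 0.145), and neither passed. The endothelial list was led by KDR, which fell with FZD8_CRD by 1.51 and 2.06 and with Wnt3a in cells given FZD8_CRD by 0.99. The changes that use FZD8_CRD replicate 3 were -1.15 and -1.35 without it. Of the 4 endothelial markers 1 was called in each of these comparisons, beside 41.9%, 37.2% and 8.29% of all genes. By sign 2 were higher and 2 lower in the first and last of them, and all 4 were lower with FZD8_CRD in the presence of Wnt3a. KDR read 1.71, 2.01 and 1.69 in untreated cells, 1.39, 1.01 and 1.68 with Wnt3a, 0.74, 0.58 and -0.43 with FZD8_CRD and -0.77, -0.79 and -0.53 with FZD8_CRD and Wnt3a, beside the LAMA2 values, whose fall came in the same comparisons with FZD8_CRD. The defining endothelial gene CDH5 read between -3.60 and -2.74 and PECAM1 between -5.70 and -3.48, toward the floor. Of the leukocyte markers 3 of 4 were tested, LYZ not being kept, and PTPRC, which defines leukocytes, read between -4.53 and -3.30. CD68 rose by 0.90 with Wnt3a in cells given FZD8_CRD and fell by 1.27 with FZD8_CRD (1.34 and -1.71 without FZD8_CRD replicate 3), and CD14 fell by 1.12 and 1.30 with CTNNB1 siRNA, without and with Wnt3a. Of the 3 leukocyte markers tested 1 was called in each of these comparisons, beside 8.29%, 41.9%, 10.6% and 10.6% of all genes.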

How the data were processed

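The authors hybridised RNA of 24 HepaRG cultures, 8 conditions of 3, to one-colour arrays of 62976 spots on 3 slides, with signals read by Agilent Feature Extraction 10.7.3.1 per the submitters' notes. The scanner files deposited hold intensity, and the authors' series values, deposited as log2 of 25443 probes centred on each row's median, served as an alternative. Processed signals were divided by each array's 75th percentile and put on a log2 scale with a floor of -6.13. A probe was kept if the scanner marked it well above background in every replicate of some condition (31067 probes), and each gene was read on its brightest kept probe by mean signal (24648 genes, 16001 with a symbol). Between 58.3% and 66.5% of spots read well above background. Under R 4.3.3, limma 3.58.1 fitted 1 mean per condition with trended variance moderation, two-sided, with Benjamini-Hochberg adjustment over all genes, and was tested on simulated data. Named genes were the 9 chains, CTNNB1, AXIN2, up to 6 members of each list in the order of their smallest p, and the 3 genes most like each chain. Members and lists were chosen with earlier results of these data known. Replicates of the same number were paired by slide: the residuals of arrays of different conditions had a mean r of 0.384 for the same number and -0.191 for others, and all 3 pairs exceeded 0.1 in 9 of 10 direct comparisons, so a replicate block was an alternative. Others were quantile and spike-in scaling, deposited values, normexp background (offset 50, on the median signal since the files hold no mean), a floor of 1, other filters, the mean of probes, marked spots, fits of the compared conditions with and without moderation, the study's thresholds (p under 0.01, fold 1.5 or 0.7) and arrays left out. Leaving out FZD8_CRD replicate 3 in comparisons that do not use it was chosen after seeing the data. Figures used matplotlib 3.10.9 in Python 3.11.15.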

Additional observations from a re-analysis of the deposited data

How the results depend on the processing

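Of the 22 called chain changes, 3 kept their call under every alternative run, LAMB1 with FZD8_CRD and LAMA4 and LAMB3 with FZD8_CRD in the presence of Wnt3a. All 22 kept it with quantile scaling, deposited values, normexp background, the other floor, the stricter filter, marked spots kept, the replicate block and without FZD8_CRD replicate 3. Spike-in scaling kept 5, ended 16 and turned LAMC1 with FZD8_CRD to -0.0185. Fits of the compared conditions kept 13, and 11 with no moderation. Leaving out all arrays of replicate 1 kept 9 and of replicate 2 kept 11, and the thresholds of the study kept 9. The filter left off and the mean of probes each kept 21. The block added 5 chain calls, each given in the report, and changed no other chain call. Signal over background limits the dimmest probes, and all laminin probes passed that mark. The cause was not tested for any of these.

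Chains called differed by more than 1.5 times as follows, the main count first and the share of all genes called in each setting after its count. For Wnt3a with FZD8_CRD (3) the count was 0 with spike-in scaling (0.998%) and 0 in fits of the compared conditions with or without moderation, where 0 of all genes were called. For control siRNA (3) it was 0 with spike-in scaling (6.63%) and 0 with the study's thresholds (10.9%), and with Wnt3a (2) 0 with these (0.901% and 5.48%) and 0 in both fits of the compared conditions (0.00406% in either). For CTNNB1 siRNA (0) it was 1 with the block (16.6%), 3 in the fit of the compared conditions (17.5%) and 2 with no moderation (11.7%). With Wnt3a (1) it was 2 with quantile scaling (10.5%), 2 with the block (15.6%), 2 in the fit of the compared conditions (9.08%), 0 with spike-in scaling (2.61%) and 0 with the mean of probes (10.3%). For FZD8_CRD (5) it was 3 with spike-in scaling (30%), 3 in both fits of the compared conditions (25.9%, and 15% with no moderation) and 2 with the study's thresholds (22.4%). With Wnt3a (8) it was 2 with spike-in scaling (9.4%), 5 with no moderation (16%) and 4 with the study's thresholds (18.9%). For Wnt3a after control siRNA (0) it was 1 with no moderation (1.73%), and for the difference in response with FZD8_CRD (0) 1 with the block (0.605%) and 2 with the study's thresholds (2.97%).

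With replicates left out, the counts ran from 0 to 2 for Wnt3a without transfection, 0 to 0 after control siRNA, 0 to 1 after CTNNB1 siRNA and 0 to 5 with FZD8_CRD. They ran from 0 to 5 for control siRNA, 0 to 5 with Wnt3a, 0 to 1 for CTNNB1 siRNA, 0 to 2 with Wnt3a, 2 to 5 for FZD8_CRD and 6 to 8 with Wnt3a, and from 0 to 0 and 0 to 4 for the differences in response to Wnt3a with CTNNB1 siRNA and with FZD8_CRD. Of 168 probe tests 37 were called, beside 12% of the tests of all probes, and 52 without FZD8_CRD replicate 3, beside 15.3%. Where a condition kept fewer arrays, its spread was taken from the other conditions.

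Genes called over all alternatives ran from 0 to 6344 for Wnt3a without transfection (main 1381), 4 to 1329 after control siRNA (520), 0 to 314 after CTNNB1 siRNA (10) and 0 to 5328 with FZD8_CRD (2044). They ran from 233 to 7913 for control siRNA (5501), 1 to 4045 with Wnt3a (2227), 188 to 4321 for CTNNB1 siRNA (2604), 588 to 3846 with Wnt3a (2608), 3709 to 13147 for FZD8_CRD (10322) and 2316 to 11950 with Wnt3a (9162). The differences in response ran from 0 to 140 (4) and 0 to 2989 (18). Genes called higher and lower under spike-in scaling, with the main counts after them, were 25 and 275 (738 and 643) for Wnt3a without transfection, 57 and 1 (269 and 251) after control siRNA and 164 and 82 (1074 and 970) with FZD8_CRD. They were 128 and 1507 (3022 and 2479) for control siRNA, 41 and 603 (1006 and 1602) for CTNNB1 siRNA with Wnt3a, 555 and 6829 (4851 and 5471) for FZD8_CRD, 666 and 1650 (4493 and 4669) for FZD8_CRD with Wnt3a, and 20 and 2 (5 and 13) for the difference in response with FZD8_CRD, where quantile scaling gave 12 and 13. For Wnt3a after CTNNB1 siRNA they were 0 and 0 (9 and 1), and 5 and 2 with quantile scaling, and for the difference in response with CTNNB1 siRNA 0 and 0 (1 and 3).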
